A study of Mus musculus with 8 samples.

Results

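The genes described here are the Hox cluster genes, chosen by symbol alone as every Hoxa, Hoxb, Hoxc or Hoxd gene followed by a number, and 33 of the 19505 named genes on the array qualified. RefSeq lists 39 such genes, and the others are not analysed here. Hox genes encode homeodomain transcription factors that give cells of the embryo their position along the head-to-tail axis. They lie in 4 clusters, Hoxa to Hoxd, and each gene carries a paralogue number that runs with its place in the cluster: low numbers are active towards the head and high numbers towards the tail. The adult gut keeps part of this code in its epithelium and its connective tissue, and group 13 genes such as Hoxb13 and Hoxd13 mark its hindmost stretch.

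Whole colon was taken from 8 wild-type BALB/c mice with acute graft-versus-host disease, an attack of transplanted donor T cells on tissues of the recipient. All 8 carried a C57BL/6 graft of bone marrow cells and T cells, transferred on day 0 after lethal irradiation, and mice without a transplant are not analysed here. From day 0 to day 7, 4 mice received PBS by mouth and 4 received 1.2 mg/kg hBD-2, human beta-defensin 2, an antimicrobial peptide of epithelial surfaces, and the colon was removed on day 7. The labels give neither the age of the mice nor the segment of colon that was taken. Each mouse had 1 Affymetrix array, and values are log2 units after RMA, a method that corrects background and gives all arrays like distributions. Each gene had 1 probe set, and values of different probe sets are not compared with each other as levels.

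The measured members were 8 Hoxa genes of chromosome 6, 9 Hoxb genes of chromosome 11, 9 Hoxc genes of chromosome 15 and 7 Hoxd genes of chromosome 2. By paralogue number 6 were anterior, with numbers 1 to 3, 12 were central, with 4 to 8, and 15 were posterior, with 9 to 13. The mean over the 8 arrays lay above the lowest 25% of all genes for 23 members and above the median gene for 13. Whether a low value stands above background cannot be read from these data.

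The promoters of 4 neighbouring Hoxd genes and of Hoxb8 are shown because the Hoxd genes are direct neighbours that set different mice apart, and because Hoxd12 and Hoxb8 are the members whose groups did not overlap. The sequences are RefSeq's, on GRCm38.p6, from 250 bases before to 50 bases after a transcription start, 5′ to 3′ on the gene's strand, which is the plus strand for all of them. Capitals mark TTTAT or its reverse complement ATAAA, a core that caudal-type and posterior Hox proteins can bind. Matches on either strand were counted separately where they overlap. The windows are Hoxd13 at chr2:74667975-74668274, Hoxd12 at chr2:74674763-74675062, Hoxd11 at chr2:74679308-74679607 for its upstream start and chr2:74682073-74682372 for its downstream start, Hoxd10 at chr2:74691641-74691940 and Hoxb8 at chr11:96281655-96281954.
Hoxd13: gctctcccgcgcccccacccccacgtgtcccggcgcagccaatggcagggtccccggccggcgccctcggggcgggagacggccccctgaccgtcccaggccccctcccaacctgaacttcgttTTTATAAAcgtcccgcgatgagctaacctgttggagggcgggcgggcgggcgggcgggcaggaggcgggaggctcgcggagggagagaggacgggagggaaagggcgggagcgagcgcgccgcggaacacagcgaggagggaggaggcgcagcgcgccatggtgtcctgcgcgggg
Hoxd12: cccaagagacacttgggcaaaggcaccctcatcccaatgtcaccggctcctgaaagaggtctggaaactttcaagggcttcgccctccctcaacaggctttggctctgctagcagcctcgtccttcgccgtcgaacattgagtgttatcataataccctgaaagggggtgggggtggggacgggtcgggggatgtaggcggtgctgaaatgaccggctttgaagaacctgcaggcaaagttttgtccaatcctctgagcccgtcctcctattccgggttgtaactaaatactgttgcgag
Hoxd11, upstream start: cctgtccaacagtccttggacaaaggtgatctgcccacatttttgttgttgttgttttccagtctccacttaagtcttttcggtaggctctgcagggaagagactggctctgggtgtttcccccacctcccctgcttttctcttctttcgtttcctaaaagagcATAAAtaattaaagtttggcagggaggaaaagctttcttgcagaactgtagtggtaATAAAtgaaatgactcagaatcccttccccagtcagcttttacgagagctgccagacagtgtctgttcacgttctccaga
Hoxd11, downstream start: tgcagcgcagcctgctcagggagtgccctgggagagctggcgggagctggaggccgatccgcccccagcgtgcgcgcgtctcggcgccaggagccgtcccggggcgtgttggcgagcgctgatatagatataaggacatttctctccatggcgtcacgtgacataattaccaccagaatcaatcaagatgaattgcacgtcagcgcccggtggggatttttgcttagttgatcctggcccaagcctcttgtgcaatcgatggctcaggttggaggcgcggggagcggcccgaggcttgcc
Hoxd10: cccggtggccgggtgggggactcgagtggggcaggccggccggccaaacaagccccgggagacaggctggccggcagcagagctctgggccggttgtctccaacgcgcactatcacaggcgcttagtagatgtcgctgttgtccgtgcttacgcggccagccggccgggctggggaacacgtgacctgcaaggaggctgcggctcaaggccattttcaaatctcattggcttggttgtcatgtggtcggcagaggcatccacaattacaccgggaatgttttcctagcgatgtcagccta
Hoxb8: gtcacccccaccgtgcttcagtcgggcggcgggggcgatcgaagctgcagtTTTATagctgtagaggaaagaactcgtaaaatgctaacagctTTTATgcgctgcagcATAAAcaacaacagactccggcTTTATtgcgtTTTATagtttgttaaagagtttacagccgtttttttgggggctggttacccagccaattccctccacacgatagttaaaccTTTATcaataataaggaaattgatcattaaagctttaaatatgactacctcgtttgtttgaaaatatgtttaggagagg

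Hoxb8 held 6 matches to the core, a number reached by 0.502% of the 32851 promoter windows of this length. The core holds only A and T, and the Hoxb8 window had 42.3% G and C against a median of 52.7%. The share of 0.502% does not take this into account. Hoxd13 held 2 that overlap, the upstream Hoxd11 window held 2, and the Hoxd12, downstream Hoxd11 and Hoxd10 windows held none. At least 1 match stood in 40.0% of all windows and in 6 of the 19 windows found for 17 members. Hox promoters are known for dense CG dinucleotides, and 17 of these 19 windows had more than the median of 7. Hoxd13 had 37 and Hoxa13 had 45, more than 94.4% and 98.1% of all windows, whereas the upstream Hoxd11 window had 4. A match or a count describes these letters and not a bound site.

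A principal component analysis over all genes separated hBD-2 1 and hBD-2 3 from the rest. Their scores on the leading axis, with 34.6% of the variance, were 25.2 and 25.4, and the other 6 scores ran from -14.9 to -2.45. Results are therefore given with and without this pair.

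Hoxb13 and Hoxd13, the posterior-most genes of their clusters, set mice of the same treatment far apart. Hoxb13 stood at 4.73, 5.14, 7.22 and 6.76 log2 units in PBS mice 1 to 4 and at 9.06, 5.11, 9.32 and 5.22 in hBD-2 mice 1 to 4. The arrays hBD-2 1 and hBD-2 3 were high, PBS 3 and PBS 4 lay between, and the remaining 4 mice of both groups were low, so the groups overlapped. The difference, hBD-2 minus PBS, was 1.22 (SE 1.01, 95% interval -1.03 to 3.47, adjusted p = 0.662 by limma), and without hBD-2 1 and hBD-2 3 it was -0.79. Its SD was 1.22 in PBS mice and 2.33 in hBD-2 mice (n = 4 each), and the mean of these SDs was above that of 99.98% of genes.

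Hoxd13 was at 4.17, 4.37, 4.46 and 4.49 in PBS mice and at 6.20, 4.09, 6.03 and 4.48 in hBD-2 mice. The same arrays, hBD-2 1 and hBD-2 3, were high, and the other 6 lay within a narrow band. The difference was 0.83 (SE 0.42, adjusted p = 0.471 by limma) and -0.085 without those arrays. PBS 3 and PBS 4, intermediate in Hoxb13, were not set apart in Hoxd13. The mean of Hoxd13 over all arrays lay in the lowest 25% of all genes, so a small rise in these mice might not be seen. In all tests, 33 members were read from 1 limma fit over 19505 genes with Benjamini-Hochberg adjustment. In whole tissue, fewer cells of a type and less RNA per cell cannot be told apart.

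The other members of group 13 varied far less. Hoxa13, a regulator of hindgut and limb development, was at 7.95, 8.18, 8.39 and 8.11 in PBS mice and at 8.33, 7.96, 8.26 and 7.80 in hBD-2 mice. Its highest 2 arrays were PBS 3 and hBD-2 1, and its whole range over 8 mice was 0.59, against 4.59 for Hoxb13 and 2.10 for Hoxd13. In Hoxa13, too, hBD-2 1 and hBD-2 3 lay above hBD-2 2 and hBD-2 4, and without that pair the difference was -0.28 (unadjusted p = 0.0599 by limma). Hoxc13, known from hair follicles and nails, was at 5.74, 5.63, 5.59 and 5.45 and at 5.47, 5.72, 5.69 and 5.80. The groups overlapped in both genes, with differences over all mice of -0.068 (SE 0.13) for Hoxa13 and 0.066 (SE 0.094) for Hoxc13.

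**Figure D1:**
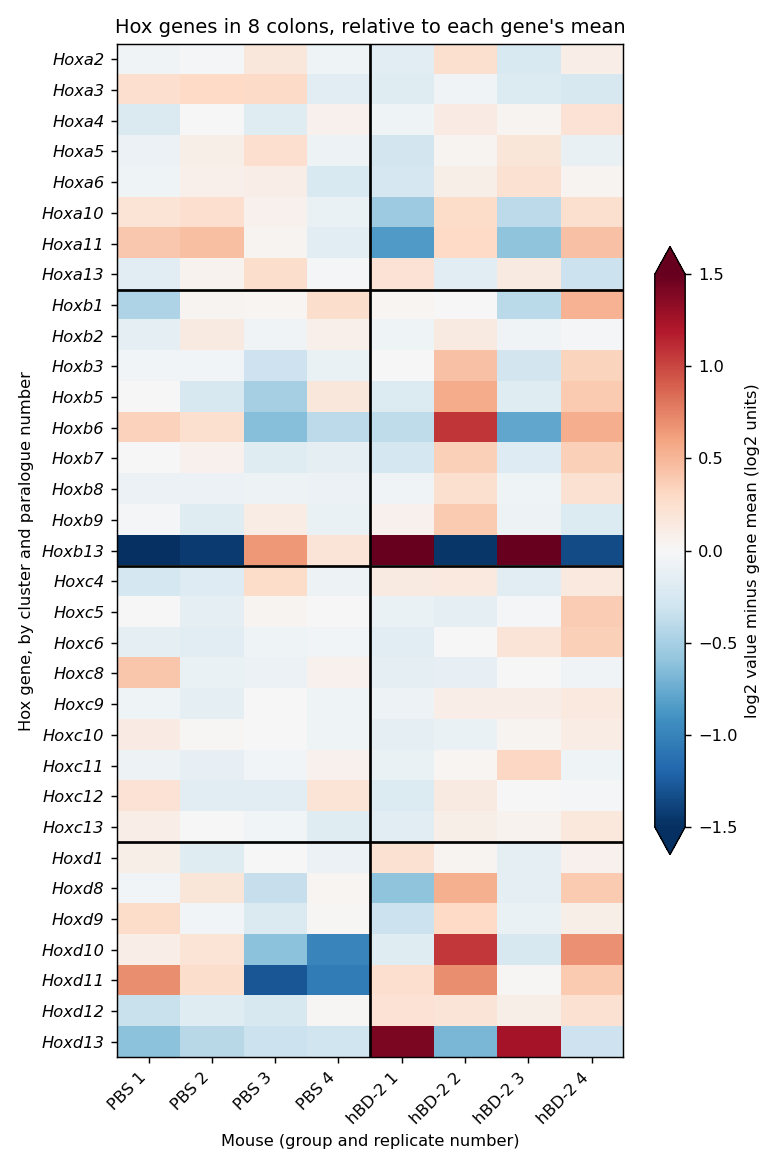
Each cell is a gene's log2 value in 1 mouse minus that gene's mean over the 8 mice, with genes ordered by cluster and paralogue number and mice by group (colours end at 1.5 log2 units either way). Hoxb13 and Hoxd13 are high in hBD-2 1 and hBD-2 3, and Hoxd10 and Hoxd11 are low in PBS 3 and PBS 4. The Hoxc rows, most of them from genes in the lowest 25% by mean, are nearly even.

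Directly beside Hoxd13, Hoxd12 gave the lowest p of any member and did not follow the same mice. It stood at 5.33, 5.48, 5.42 and 5.68 in PBS mice and at 5.87, 5.86, 5.75 and 5.89 in hBD-2 mice. All 4 hBD-2 mice lay above all 4 PBS mice. The difference of 0.36 (SE 0.086, 95% interval 0.17 to 0.55), a factor of 1.29, had an unadjusted p of 0.0017 and did not pass (adjusted p = 0.158 by limma). It was 0.39 without hBD-2 1 and hBD-2 3, and 0.31 to 0.43 with single mice left out. Hoxd12 takes part in patterning limbs and the urogenital region, and its group means were 5.48 ± 0.15 and 5.84 ± 0.06 (SD, n = 4).

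Hoxd11 and Hoxd10, the next genes of the cluster, set PBS 3 and PBS 4 apart. Hoxd11 was at 6.59, 6.16, 4.61 and 4.85 in PBS mice and at 6.15, 6.59, 5.92 and 6.29 in hBD-2 mice. PBS 3 and PBS 4 were the lowest, PBS 2 lay among the hBD-2 mice, and PBS 1 was level with the highest of them. The difference was 0.68 (SE 0.39, adjusted p = 0.526 by limma). It became -0.14 when PBS 3 and PBS 4 were left out together, an alternative added after the values were seen, and was 0.89 without hBD-2 1 and hBD-2 3.

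Hoxd10 was at 4.97, 5.07, 4.26 and 3.88 in PBS mice and at 4.69, 5.93, 4.63 and 5.55 in hBD-2 mice. PBS 3 and PBS 4 were again lowest, hBD-2 2 and hBD-2 4 were highest, and the groups overlapped. The mean of Hoxd10 over all arrays lay in the lowest 25% of all genes, so its low values may be near background. The difference was 0.66 (SE 0.34, adjusted p = 0.478 by limma), 0.18 without PBS 3 and PBS 4 and 1.20 without hBD-2 1 and hBD-2 3. PBS 3 and PBS 4 were the lowest 2 arrays for these 2 of 33 members and for 2.63% of all genes.

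Hoxa11 and Hoxa10, posterior genes of the Hoxa cluster, were low where Hoxb13 and Hoxd13 were high. Hoxa11 was at 7.97, 8.02, 7.61 and 7.39 in PBS mice and at 6.72, 7.87, 6.97 and 8.00 in hBD-2 mice. The arrays hBD-2 1 and hBD-2 3 were lowest, PBS 4 and PBS 3 came next, and the remaining 4 mice lay close together above them. The difference of -0.36 (SE 0.28, adjusted p = 0.638 by limma) became 0.19 without hBD-2 1 and hBD-2 3.

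Hoxa10, which shares roles in reproductive tract patterning with Hoxa11, was at 9.93, 9.97, 9.79 and 9.62 and at 9.18, 9.99, 9.33 and 9.96. Again hBD-2 1 and hBD-2 3 were lowest, and the difference of -0.21 (SE 0.18) became 0.15 without them. They were the lowest 2 arrays for 4 of 33 members, Hoxa2, Hoxa10, Hoxa11 and Hoxb7, and for 8.06% of all genes. They were the highest 2 for 2 members, Hoxb13 and Hoxd13, and for 6.41% of all genes.

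**Figure D2:**
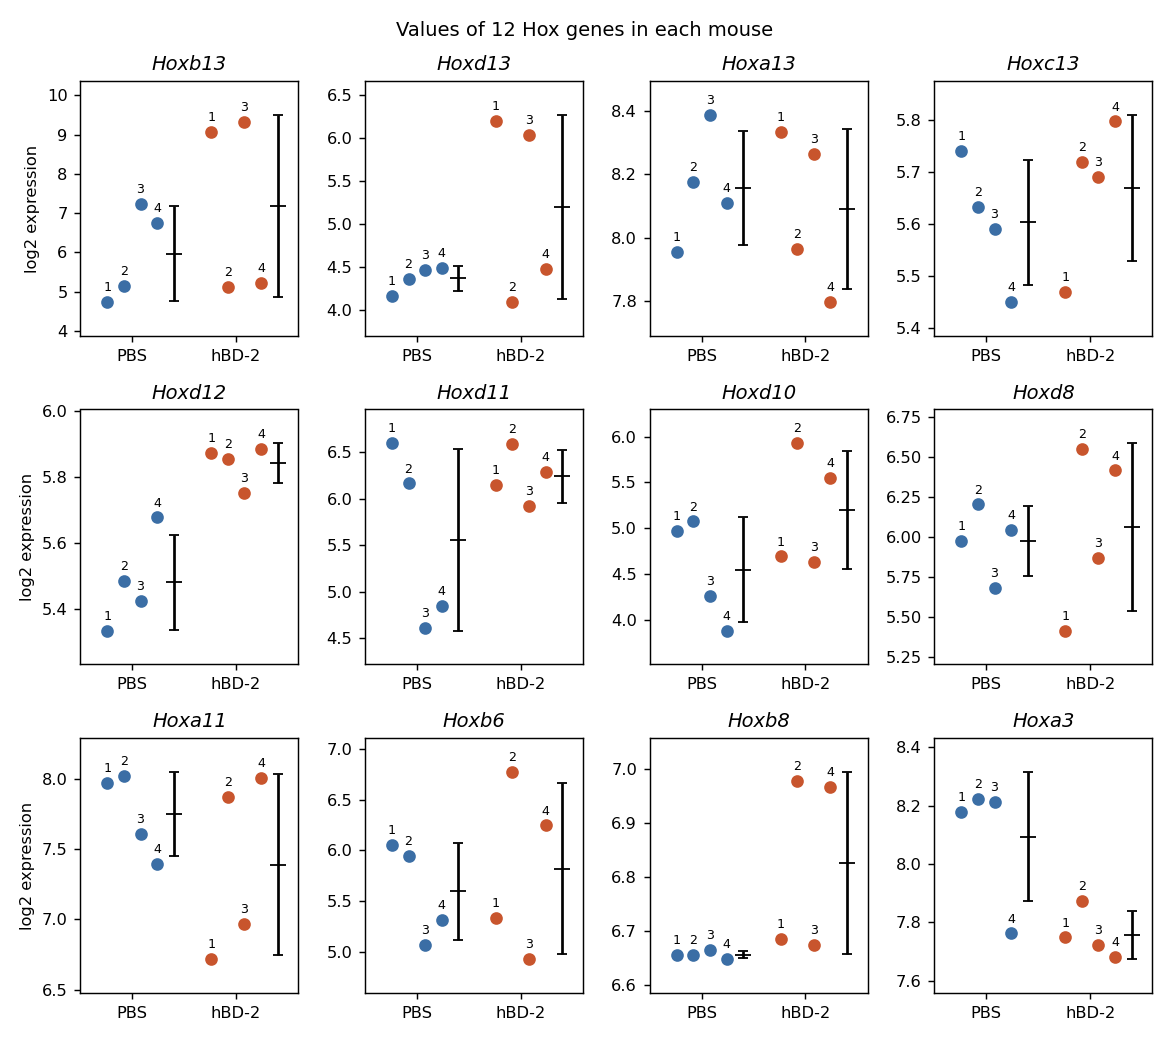
Points are log2 values of 12 Hox genes in single mice, numbered by replicate, in PBS (blue) and hBD-2 (red-orange) mice, with the mean and SD of each group as a black bar; each panel has its own axis, which does not start at 0. The groups lie apart in Hoxd12 and, by a narrow gap, in Hoxb8, while hBD-2 1 and hBD-2 3 part from hBD-2 2 and hBD-2 4 in Hoxb13, Hoxd13, Hoxa11 and Hoxb8.

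The arrays hBD-2 2 and hBD-2 4 were singled out by genes that were mostly central and mostly of the Hoxb cluster. They were the highest 2 arrays for 8 of 33 members, Hoxa4, Hoxb3, Hoxb5, Hoxb6, Hoxb7, Hoxb8, Hoxd8 and Hoxd10, and for 7.23% of all genes. Of these members Hoxb3 is anterior and Hoxd10 posterior, and the central genes Hoxa5 and Hoxa6 had PBS 3 and hBD-2 3 highest. This pair of mice was chosen after the values were seen, and genes of 1 cluster are neighbours rather than separate observations. Hoxb3, Hoxb5 and Hoxb7 are likewise named after their values were seen.

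Hoxb6 had the largest spread of the central genes, at 6.05, 5.94, 5.07 and 5.31 in PBS mice and at 5.33, 6.78, 4.92 and 6.25 in hBD-2 mice. Thus hBD-2 2 and hBD-2 4 lay above all PBS mice, hBD-2 3 lay below them and hBD-2 1 lay within their range. The difference was 0.23 (SE 0.38, adjusted p = 0.846 by limma), and 0.92 without hBD-2 1 and hBD-2 3. It was -0.18 without PBS 3 and PBS 4.

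Hoxb8 was almost even in the PBS mice, at 6.66, 6.66, 6.66 and 6.65, with an SD of 0.0068, which is smaller than that of all but 0.05% of genes. The hBD-2 mice stood at 6.69, 6.98, 6.68 and 6.97. The groups did not overlap, but hBD-2 1 and hBD-2 3 lay barely above the PBS mice. The difference was 0.17 (SE 0.089, adjusted p = 0.483 by limma), and 0.32 without hBD-2 1 and hBD-2 3.

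Hoxb5, which takes part in the colonisation of the gut by enteric neurons, was at 6.86, 6.61, 6.35 and 7.02 and at 6.64, 7.41, 6.67 and 7.24. The difference was 0.28 (SE 0.20), and 0.61 without hBD-2 1 and hBD-2 3. Hoxb7 was at 8.06, 8.12, 7.88 and 7.93 and at 7.80, 8.43, 7.87 and 8.42, with a difference of 0.13 (SE 0.15) that became 0.43. In each of these genes hBD-2 1 and hBD-2 3 stood inside or below the PBS range. Hoxb3, at 7.08, 7.08, 6.80 and 7.02 and at 7.12, 7.56, 6.84 and 7.45, had a difference of 0.24 (SE 0.15) that became 0.51. Here hBD-2 1 lay just above the PBS mice and hBD-2 3 within them.

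Hoxd8 was at 5.97, 6.20, 5.68 and 6.04 and at 5.41, 6.55, 5.87 and 6.42, and Hoxa4 was at 7.23, 7.45, 7.27 and 7.51 and at 7.38, 7.58, 7.49 and 7.67. Both had hBD-2 2 and hBD-2 4 on top and groups that overlapped. Hoxd8 differed by 0.088 (SE 0.23), and by 0.51 without hBD-2 1 and hBD-2 3. Hoxa4 differed by 0.16 (SE 0.093), and by 0.26.

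Among the anterior genes only Hoxa3, which is needed for thymus and pharyngeal development, had an unadjusted p under 0.05 with all mice. It was at 8.18, 8.22, 8.21 and 7.76 in PBS mice and at 7.75, 7.87, 7.72 and 7.68 in hBD-2 mice. PBS 1, PBS 2 and PBS 3 lay above all hBD-2 mice, and PBS 4 lay among them. The difference of -0.34 (SE 0.11, 95% interval -0.58 to -0.094) had an unadjusted p of 0.0115 and did not pass (adjusted p = 0.272 by limma). It was -0.44 without PBS 3 and PBS 4. Hoxb3, described above, is anterior as well, and without hBD-2 1 and hBD-2 3 its unadjusted p was 0.00132 by limma. The anterior genes Hoxa2, Hoxb1, Hoxb2 and Hoxd1 had differences of -0.019, 0.069, -0.0032 and 0.0905. Outside the anterior class, Hoxa5, Hoxa6, Hoxb9 and Hoxd9 had differences of -0.0825, 0.054, 0.089 and -0.017 with overlapping groups. Hoxd1 and Hoxd9 had means under 5.04, the limit of the lowest 25% of all genes.

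The Hoxc cluster was the most even, but most of it was low. Hoxc5, Hoxc6, Hoxc8, Hoxc10, Hoxc11 and Hoxc12 had means under 5.04, the limit of the lowest 25% of all genes. For these, even values cannot be told from a signal near background. Its 9 members had median SDs of 0.084 in PBS and 0.14 in hBD-2 mice, against 0.13 and 0.14 over all genes, and no member had a range above 1 log2 unit. Hoxc9 was at 7.05, 6.97, 7.10 and 7.04 and at 7.03, 7.21, 7.21 and 7.26, with a difference of 0.14 (SE 0.075). Hoxc6 was at 4.67, 4.65, 4.74 and 4.76 and at 4.63, 4.81, 5.0 and 5.16, with a difference of 0.20 (SE 0.11). In both, hBD-2 1 lay with the PBS mice and the other hBD-2 mice lay above them. Hoxc10 was at 4.85, 4.75, 4.73 and 4.67 and at 4.59, 4.63, 4.77 and 4.84, with a difference of -0.041 (SE 0.080). No Hoxc gene had an unadjusted p under 0.05. Hoxc4, Hoxc5, Hoxc8, Hoxc11 and Hoxc12 had differences of 0.13, 0.059, -0.15, 0.088 and -0.045, and the groups overlapped in each.

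Over the whole family, spread within groups was wider than for genes in general. Among Hox genes the median SD came to 0.15 (PBS) and 0.23 (hBD-2). The mean of both SDs was above the median gene's in 24 of 33 members, and in the top 10% of genes for 10. A range over the 8 mice above 1 log2 unit was found in 8 members, Hoxa11, Hoxb5, Hoxb6, Hoxb13, Hoxd8, Hoxd10, Hoxd11 and Hoxd13, and in 4.25% of all genes. By class these were none of 6 anterior, 3 of 12 central and 5 of 15 posterior members, and by cluster 1 of 8 Hoxa, 3 of 9 Hoxb, none of 9 Hoxc and 4 of 7 Hoxd genes.

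**Figure D3:**
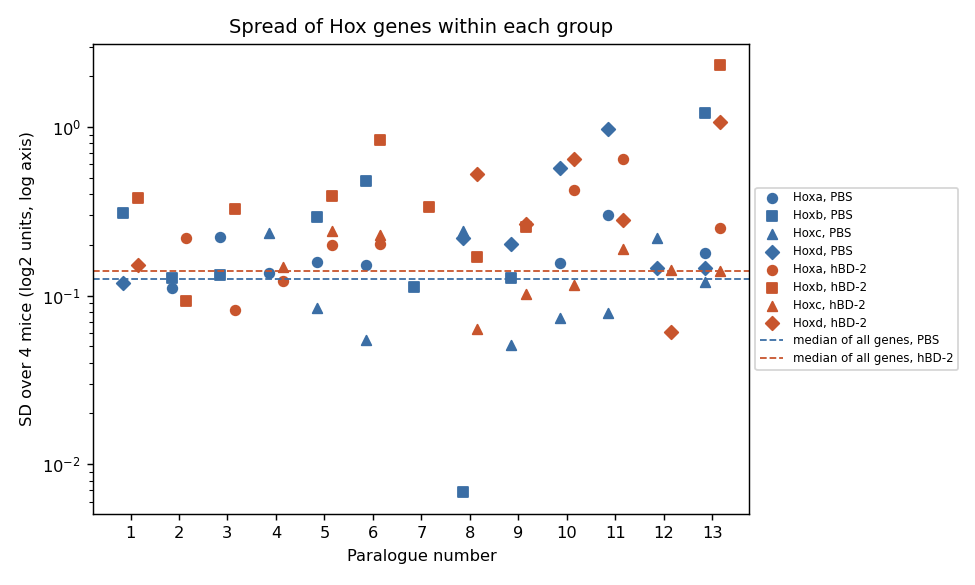
Points are the SD over the 4 mice of a group (log axis) for each Hox gene against its paralogue number, with colour for the group and marker for the cluster; dashed lines give the median SD of all genes, 0.13 in PBS and 0.14 in hBD-2 mice. Hoxb13 reaches 1.22 and 2.33, Hoxd13 reaches 1.07 in hBD-2 mice alone and Hoxd11 reaches 0.97 in PBS mice, while Hoxb8 in PBS mice lies lowest at 0.0068.

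Between the groups, none of the 33 members passed an adjusted p of 0.05 in limma, where 0.0410% of genes did, 8 in all. At an unadjusted p under 0.05 there were 2 members, Hoxd12 higher and Hoxa3 lower in hBD-2 mice (5.98% of all genes were lower and 5.85% higher, 11.8% in either direction). The groups did not overlap in 2 members, Hoxd12 and Hoxb8, against 6.41% of all genes. The median difference was 0.088 over the members and 0.012 over all genes, and 22 members lay above 0, where 53.5% of all genes did. By cluster the medians were -0.075 for Hoxa, 0.17 for Hoxb, 0.066 for Hoxc and 0.36 for Hoxd, and by class 0.033 for anterior, 0.13 for central and 0.088 for posterior genes. The widest interval, that of Hoxb13, ran from -1.03 to 3.47.

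Without hBD-2 1 and hBD-2 3, limma with 4 against 2 mice again passed no member, and 0.00% of the 19505 genes. At an unadjusted p under 0.05 there were then 10 members, all of them higher in hBD-2 2 and hBD-2 4, where 7.35% of all genes were higher at that level. They were Hoxa4, Hoxb3, Hoxb5, Hoxb6, Hoxb7, Hoxb8, Hoxc6, Hoxd8, Hoxd10 and Hoxd12. Of these, 7 were central genes. The groups then lay apart, with hBD-2 higher, in 11 members and in 11.8% of all genes. Without PBS 3 and PBS 4 there were 3, Hoxa3, Hoxc4 and Hoxd12, against 12.2% of all genes, and none passed (0.00% of all genes). The groups then lay apart in 4 members and in 23.4% of all genes. Hoxa3 and Hoxd12 were thus below 0.05 with all mice and without PBS 3 and PBS 4, and without hBD-2 1 and hBD-2 3 Hoxa3 had an unadjusted p of 0.0591.

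**Figure D4:**
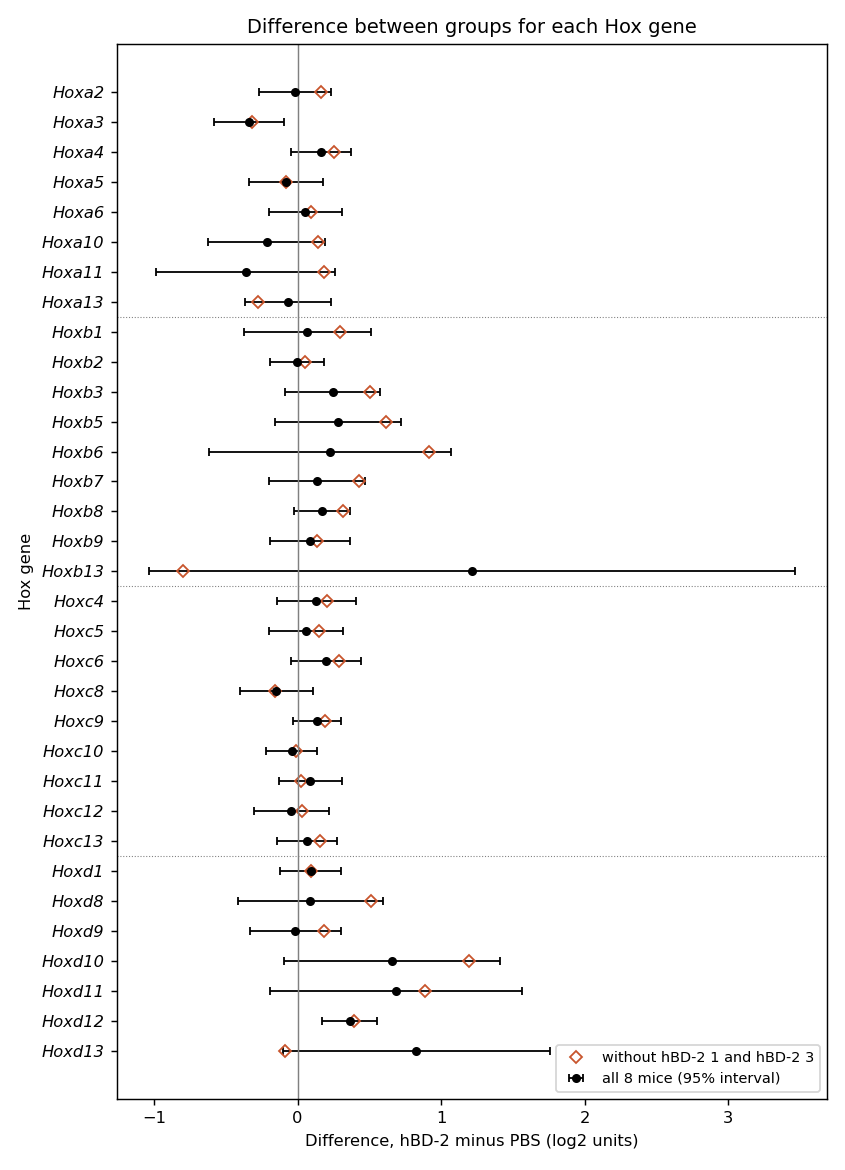
Black points are the difference, hBD-2 minus PBS in log2 units, with its 95% interval from limma over all 8 mice, for each Hox gene; open diamonds are the same difference without hBD-2 1 and hBD-2 3. Only the intervals of Hoxa3, from -0.58 to -0.094, and Hoxd12, from 0.17 to 0.55, leave out 0. The diamonds of 8 members, Hoxb13, Hoxd13, Hoxa10 and Hoxa11 among them, lie on the other side of 0 from their black points.

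Most genes of the regional list, and some of the caudal list, set the same mice apart. In the regional list, hBD-2 1 and hBD-2 3 were highest in Insl5, Scnn1b, Scnn1g, Fxyd4, Aqp4 and Car4, and lowest in Fabp2. The arrays hBD-2 2 and hBD-2 4 were highest in Osr2 and Cyp2c55, and Aqp8 and Slc10a2 followed neither pair. Over all genes, the first pair was highest for 6.41% and lowest for 8.06%, and the second was highest for 7.23%. Aqp4, a water channel, was at 7.74, 7.10, 9.21 and 9.54 in PBS mice and at 10.75, 7.58, 10.79 and 7.35 in hBD-2 mice, so its 4 highest mice were those of Hoxb13. Osr2, a zinc finger transcription factor of the gut connective tissue, was at 6.24, 6.16, 4.96 and 4.57 and at 5.08, 7.92, 4.96 and 7.01, where hBD-2 2 and hBD-2 4 were highest as in Hoxb6. Cdx2, the caudal-type factor of intestinal identity, was at 10.12, 10.18, 10.23 and 10.11 and at 9.44, 10.35, 9.48 and 10.17, with hBD-2 1 and hBD-2 3 lowest as in Hoxa11. Aqp4, Osr2 and Cdx2 were picked after their values were seen, and the part of these lists in the Hox values was not tested.

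Markers of colon epithelium were all measured and had list means of 12.05 to 12.15 in PBS and 12.08 to 12.20 in hBD-2 mice. Of the ileum list, all 5 were measured, and 3 had means below that of the median gene. The means of Slc10a2 and Alpi lay above it. Slc10a2 ran from 7.34 in PBS 4 to 9.24 in hBD-2 2. Alpi ran from 6.11 in hBD-2 3 to 8.48 in hBD-2 2, with hBD-2 2 and hBD-2 4 highest. Whether the mice differ in the segment taken was not tested. All 8 markers of anal squamous epithelium and all 4 of urothelium had means below that of the median gene. The squamous list stood at 4.97 to 5.17 in PBS and 5.09 to 5.22 in hBD-2 mice, and the urothelial list at 5.28 to 5.59 and 5.43 to 5.66. Of the prostate list, a tissue that also expresses Hoxb13, 3 of 4 were measured. Pbsn, its defining secretory gene, was at 3.65 to 3.87 in PBS and 3.47 to 4.20 in hBD-2 mice, while Spink1, which the gut also makes, read 10.30 in hBD-2 1, 9.75 in hBD-2 3 and 7.12 to 8.83 elsewhere. The fibroblast list, with 4 of 5 measured, lay apart by treatment, at 9.80 to 10.06 in PBS and 9.25 to 9.74 in hBD-2 mice, and hBD-2 1 and hBD-2 3 were lowest at 9.25 each. Of its genes Col1a1, Col3a1 and Lum lay apart, and Dcn overlapped. The mean of the leukocyte list, also with 4 of 5 measured, lay apart as well, at 9.13 to 9.32 and 8.77 to 9.0. Of the leukocyte genes only Lyz2 and Itgam lay apart. Ptprc and the T cell gene Cd3e overlapped, and Cd3e was highest of all mice in hBD-2 1, at 8.50. The smooth muscle list means overlapped, at 11.12 to 11.43 in PBS and 10.77 to 11.40 in hBD-2 mice. Those of enteric neurons and glia, with 4 of 5 measured, overlapped too, at 5.78 to 6.22 and 5.69 to 5.85. Within these lists Acta2 and Prph lay apart, lower in hBD-2 mice, and the other genes overlapped. No gene of the fibroblast, leukocyte, smooth muscle or neuron lists passed. The part of these lists in the values of Hox genes, their partners and their regulators was not tested.

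Partners and regulators of Hox proteins were read from lists, and none of their members passed in limma. Their counts at an unadjusted p under 0.05 stand against 5.98% of all genes lower and 5.85% higher, and a share near these is not a result about the list. Of 8 partner genes of the TALE class, which bind DNA together with Hox proteins, 3 were lower and none higher at that level. The means of the fibroblast and leukocyte lists, though not every gene in them, were below every PBS mouse in all 4 hBD-2 mice. Those of smooth muscle and of enteric neurons and glia overlapped, though Acta2 and Prph were lower without overlap. The part of these lists in the partner genes was not tested. Pbx3 was at 8.13, 7.91, 8.16 and 7.98 in PBS mice and at 7.73, 7.69, 7.57 and 7.71 in hBD-2 mice, with no overlap and a difference of -0.37 (SE 0.081, adjusted p = 0.136 by limma). Meis1 differed by -0.44 (SE 0.16) with overlapping groups, and by -0.25 without hBD-2 1 and hBD-2 3.

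Of 26 Polycomb and trithorax genes, which keep Hox clusters silent or active, 2 were lower and none higher, which is near the 5.98% of all genes. Bmi1, a core Polycomb protein, was at 9.06, 9.07, 9.17 and 9.25 in PBS mice and at 8.61, 8.77, 8.70 and 8.95 in hBD-2 mice, with no overlap and a difference of -0.38 (SE 0.089, adjusted p = 0.158 by limma). Phf19, a Polycomb-like protein, differed by -0.39 (SE 0.10). Of 10 caudal-type and posterior regulators 1 was higher, Cdx1 at 0.21 (SE 0.081), with Cdx4 at 0.20 (SE 0.12). Of 14 genes of retinoic acid signalling, an inducer of anterior Hox genes, 1 was higher, the receptor Rxrg at 0.30 (SE 0.12), and the synthetic enzyme Aldh1a2 was at -0.17 (SE 0.10). With 5.85% of all genes higher, 1 gene in either list is near the background.

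Among 15 neighbours of the clusters, Ttll6 beside the Hoxb genes was higher by 0.68 (SE 0.19, adjusted p = 0.219 by limma) with no overlap, and by 0.32 when hBD-2 1 and hBD-2 3 were dropped. Snx10, near the Hoxa genes, was at -0.22 (SE 0.083). Of 11 regional colon genes 2 were higher, against 5.85% of all genes. These were Car4, a carbonic anhydrase, at 0.39 (SE 0.12), and Fxyd4, a regulator of the sodium pump, at 1.22 (SE 0.47). With hBD-2 1 and hBD-2 3 dropped, Car4 was at 0.24 and Fxyd4 at 0.23.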

How the data were processed

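Total RNA from whole colon of 8 mice was labelled with the manufacturer's kit for small RNA amounts and measured on Affymetrix arrays, per the labels. The authors deposited log2 values for 22203 probe sets, made with oligo and RMA per the submitters' processing notes; no source used here states which genome build the array was designed on. RMA makes array distributions alike (medians 6.77 to 6.82), so an overall shift would not be seen. Of the probe sets 19572 had 1 gene symbol in the platform annotation, none had several and 2631 had none. The highest-mean probe set was kept for each of 19505 genes, and every Hox gene had 1.

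Group and replicate come from the titles; nothing else about litters or cages is given, so p-values measure the spread between these mice. Two-sided limma tests (version 3.58.1, run under R 4.3.3, moderated variances) compared the groups, adjusted over all genes at 0.05, and the pipeline was tested on simulated data. The number of arrays limits the precision. The members and lists were chosen with earlier results of these data known. Values in every mouse were printed for group 13, the 8 members with the lowest p, the 8 with the largest SD in a group, the 4 with the smallest mean SD, and some picked later as stated; in other lists the 2 lowest p were named. Alternatives were an intensity trend, filters on the lowest 25% or 50%, median centring, repeated quantile normalization, a log2 minimum of 4, averaged probe sets, array weights, the replicate block, each mouse left out, hBD-2 1 and hBD-2 3 left out, a threshold of 0.1 and all probe sets. Figures were drawn with matplotlib 3.10.9.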

Additional observations from a re-analysis of the deposited data

Results flagged for a closer look

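A gap between 1 mouse and the other 3 of its group larger than Dixon's 95% limit was found for 3 of 33 Hox genes and 3 of the other genes named. About 1 in 20 groups shows such a gap by chance, and 90 groups were looked at. Hoxa3 was at 7.76 in PBS 4, against 8.18 to 8.22 in the other PBS mice. Hoxb2, a hindbrain patterning gene, was at 7.16 in hBD-2 2, against 6.96 to 7.00. Hoxc4 was at 5.65 in hBD-2 3, against 5.94 to 5.95. Cdx1 was at 9.96 in hBD-2 3, against 9.73 to 9.75. Rxrg was at 4.55 in PBS 4, against 4.68 to 4.70, and Phf19 was at 5.49 in PBS 1, against 5.85 to 5.88.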

How the results depend on the processing

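No Hox gene passed in limma under any alternative run. Over all genes, 8 passed; 91 did with an intensity trend and robust prior, 16 and 47 with the lowest 25% and 50% of genes left out, 4 with quantile normalization repeated, 0 with a log2 minimum of 4, 68 with array weights, 81 at a threshold of 0.1, 5 with all probe sets tested, 0 without hBD-2 1 and hBD-2 3, 0 without PBS 3 and PBS 4 and 0 to 11 with single mice left out. Both pairs were chosen from these same data. The pair hBD-2 1 and hBD-2 3 stood apart in the principal component analysis, and PBS 3 and PBS 4 were picked after the Hox values were seen. The cause of these changes was not tested.

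With the replicate number as a block 0 genes passed, and 4 Hox genes had an unadjusted p under 0.05 in place of 2. The share of all genes at that level was not counted with the block. The rise is therefore not read as a result about Hox genes. Same-numbered mice deviated from their group means with correlations of -0.152, 0.139, 0.244 and 0.0454, and not every mouse correlated best with its own number. Whether same-numbered mice share more than a number cannot be told from so few correlations.

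The count of Hox genes at an unadjusted p under 0.05 was 2 to 6 with single mice left out, 1 with the lowest 50% of genes left out (13 Hox genes tested) and 10 with hBD-2 1 and hBD-2 3 dropped. Hox genes with separate groups numbered 2 to 4 with single mice left out and 0 with the lowest 50% left out. They numbered 11 without hBD-2 1 and hBD-2 3 and 4 without PBS 3 and PBS 4, and fewer mice separate more easily. For both counts, shares over all genes are given above for the dropped pairs. They were not counted with single mice or the lowest 50% of genes left out. Counts at those settings are therefore not read as results about Hox genes. The median Hox difference moved in every alternative run by less than the SD between mice of each mouse's median deviation. The median spread moved by less than the SD of this spread between Hox genes, which Hoxb13 widens. Both limits are wide beside the medians themselves, so staying within them does not show that the values are stable. The median spread was 0.18, and 0.17 to 0.20 with single mice left out. The median difference was 0.049 to 0.13 with single mice left out, 0.16 with hBD-2 1 and hBD-2 3 dropped and 0.041 with array weights, and it turned to -0.0032 with the lowest 50% of genes left out.

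Of the 33 members, 8 turned direction without hBD-2 1 and hBD-2 3 and 7 without PBS 3 and PBS 4. Without hBD-2 1 and hBD-2 3, Hoxa2 was at 0.16, Hoxb2 at 0.051, Hoxc12 at 0.032, Hoxd9 at 0.18, Hoxa10 at 0.15, Hoxa11 at 0.19, Hoxb13 at -0.79 and Hoxd13 at -0.085. Without PBS 3 and PBS 4, Hoxa2 was at 0.027, Hoxb2 at 0.0073, Hoxa13 was at 0.023, Hoxb6 at -0.18, Hoxc13 at -0.017, Hoxd8 at -0.026 and Hoxd11 at -0.14. Other alternatives were followed for the genes named by rule. With array weights, Hoxb6 was at -0.0039 and Hoxd8 at -0.035. With single mice left out, Hoxa13 ran from -0.15 to 0.030, Hoxb6 from -0.093 to 0.52 and Hoxd8 from -0.075 to 0.30. Without hBD-2 2, Hoxb6 turned to -0.093. The 4 mice of each group and unknown signal over background limit the low members.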
